A study of Mus musculus with 24 samples.

Results

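Complement is a set of blood and tissue proteins that tag and lyse foreign or damaged cells. The genes described here are 6 of its factors and regulators, C3, C4b, Cfb, Cfd, Serping1 and Cd55, taken by gene symbol from the annotation of the array. Of the 6, Serping1, Cd55 and Cfb had probe sets of their own, 3 of the 8251 genes that did in the whole series. C4b was read only by 2 probe sets annotated to both C4a and C4b, and a further probe set was annotated to both Cd55 and Cd55b, so signals of these 3 probe sets are given as shared and are not assigned to 1 gene. No probe set was listed for C3 or Cfd, which were not analysed here. In all, 7 probe sets were read, of which 4 belonged to 1 gene only.

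The arrays measured 11 lines of tumour cells from the lungs of 8-month-old mice with both a c-Myc and a c-Raf transgene. The control was alveolar epithelial type II cells of healthy non-transgenic mice, for which the labels give no separate age. The lines were A2B1, A2C12, B3, betaD5, betaD10, cRAF_cMYC, gammaA3, gammaA7, gammaB8, gammaD1 and gammaD12. They were passaged weekly, up to 50 times, in medium with 10% calf serum, and the labels give passages for the lines alone. There were 22 arrays of lines (5 lines with 3 arrays, 1 with 2 and 5 with 1) and 2 of control, named control 1 and control 2. The labels do not say which promoter drives the transgenes, whether a line is 1 clone, whether the arrays of a line were separate cultures, or whether control animals were pooled. Transgenes, tumour origin and passage in culture separate the lines from the control together and cannot be told apart here.

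Complement starts by 3 routes. In the classical and lectin routes, proteases cleave C4 and C2 to build an enzyme that splits C3, and in the alternative route factor B (Cfb), cut by factor D (Cfd), does the same, after which C3 fragments coat surfaces and the terminal proteins form a pore. Serping1 encodes C1 inhibitor, a secreted serpin that blocks the proteases of the classical and lectin routes, and Cd55 encodes decay-accelerating factor, a membrane-anchored protein that takes apart the C3-splitting enzymes on the cell's own surface. The liver makes most circulating complement, and in lung both epithelial cells and macrophages are known sources.

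Signals were deposited in arbitrary units and scaled so that each array's trimmed mean was between 249.9 and 250.0. Median signals were 53.2 to 75.5 on the line arrays and 93.8 to 107.7 on the control arrays. Several arrays went against their line labels. The numbered arrays of cRAF_cMYC and gammaA7 correlated best with each other after each probe set's mean was removed (replicates 1 at r = 0.73, replicates 2 at r = 0.83), and no better than 0.41 with any array of their own line. The unnumbered arrays of A2B1, B3, gammaA7 and gammaB8 also matched another line best, and the A2B1 arrays correlated with each other at 0.32. One line titled gammaB8 carries another name in a further label field, and the title is used here. The control label was checked against markers of lung cells. The surfactant gene Sftpc had a signal of at most 61.2 on any line array, against 786 on control 1 and 11200 on control 2. Macrophage and myeloid markers were bright in the control as well, with a summed signal over 11 genes of 573 to 2063 in the lines, 44963 in control 1 and 26150 in control 2. In the lines most of that sum came from 1 gene, Cd14, with a median of 706.5 on line arrays beside a median sum of 888.3.

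Serping1 and Cd55, a secreted and a membrane-bound brake on complement, had lower signals in the tumour lines than in the control. Serping1 was 4.70-fold and Cd55 4.77-fold lower on the log2(signal + 32) scale, and both were called, at a limma adjusted p below 0.05 with a difference of 2-fold or more between 11 line means and 2 control arrays. By the same rule 21.4% of all 7670 tested probe sets were lower and 16.5% higher as deposited, and that balance turned with scaling, to 17.9% lower and 21.8% higher after quantile normalization and 12% lower and 31.6% higher with each array centred on its median. Both genes stayed called lower under either scaling, but the size of the difference leaned on control 2. Without it the log2 difference was -1.25 for Serping1 and -1.43 for Cd55, against -2.23 and -2.25 with both controls, and Cd55 was no longer called. The first of the Cfb probe sets was dim on all arrays, and the main probe set shared by C4a and C4b was low in every line. Cd55 stood out by line, being at control level on 1 array of A2B1. Only probe sets brighter than the array's median on 2 or more arrays entered the test. The C4a/C4b probe set met this through both control arrays alone, so it had to be lower in the lines and no test of it against the control is given. Serping1 was above the median on 10 arrays, on 1 of them by a margin lost in rounding, and Cd55 on 6. RNA was pooled over cells, so fewer cells that express a gene and less of its RNA per cell cannot be told apart.

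**Figure D1:**
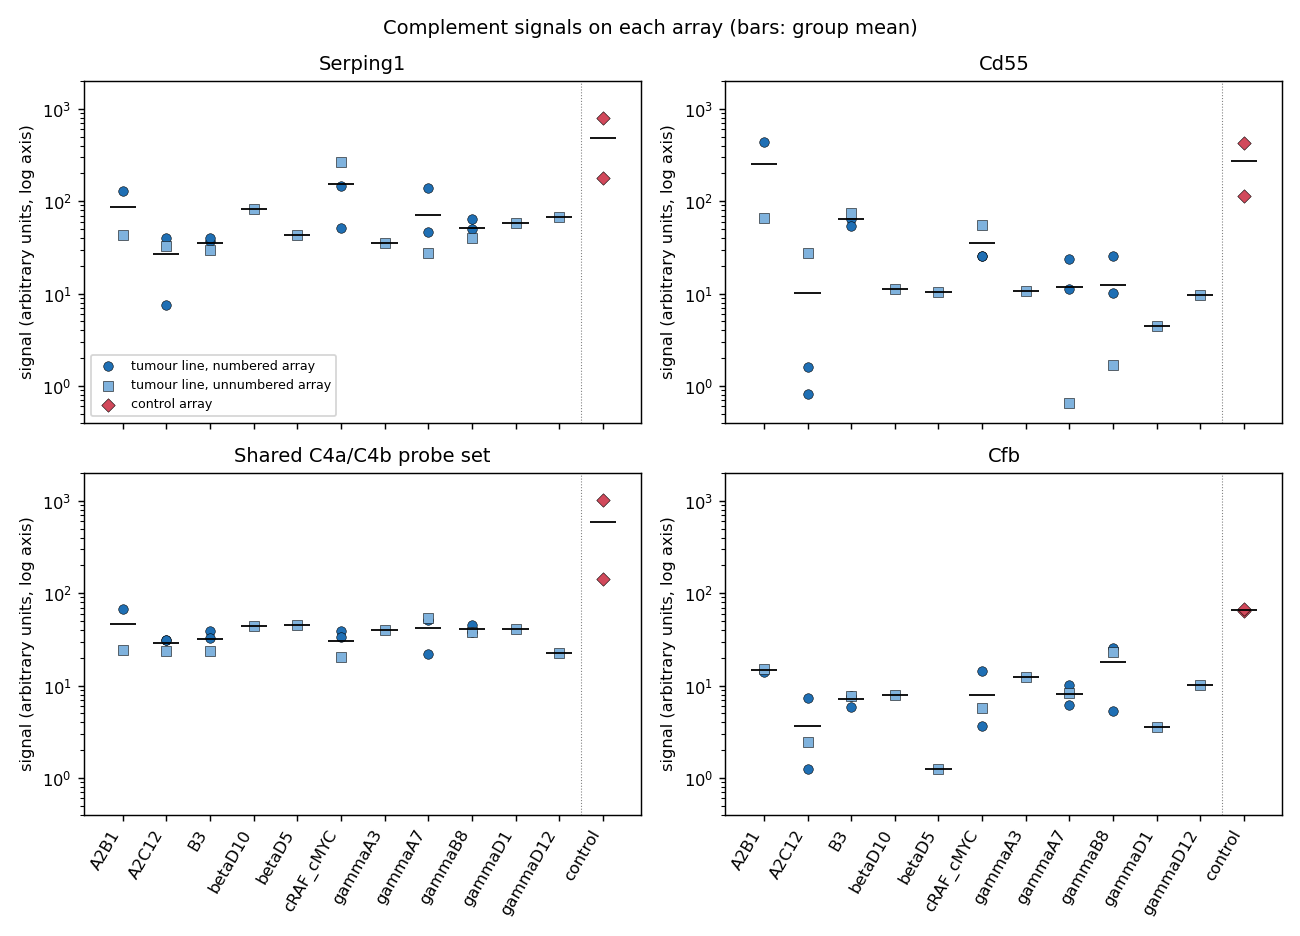
Signal (arbitrary units, log axis) of 4 complement probe sets on each of the 24 arrays, with the 11 tumour lines to the left and the control to the right. Circles are numbered and squares unnumbered line arrays, diamonds are control arrays and bars are group means. Serping1 and Cd55 each lay below both controls on 21 of 22 line arrays, the C4a/C4b probe set and Cfb on 22 of 22. Every line mean lay below both controls for 29.7% of tested probe sets. The filter fixed the direction of the C4a/C4b probe set.

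Among the components, the main probe set shared by C4a and C4b was uniformly low in the lines. C4 is the classical and lectin factor that, once cleaved, joins C2 in the C3-splitting enzyme, and mouse C4a is its close copy, known as sex-limited protein. The signal averaged 37.6 ± 7.86 (SD over line means, n = 11), against 142.6 in control 1 and 1024 in control 2. Single line arrays ran from 20.3 through a median of 38.0 to 67.8, so every line array lay below both controls and the groups did not overlap. For comparison, every line mean lay below both controls for 29.7% of tested probe sets. The log2 difference of the lines from the control was -2.64 (SE 0.39), with single lines at -2.98 to -2.47. Its direction was fixed by the filter, so these values are a description. Line means spanned only 22.5 in gammaD12 to 46.1 in A2B1, and no difference among the lines was called (F-test adjusted p = 1). The spread used by that test includes the control pair, 2.60 apart on the log2 scale, so it could miss small differences among lines. All 22 line arrays had this probe set below their own median signal, so its size in the controls set the difference. Without control 2 the difference was -1.35, and without control 1 it was -3.94.

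The other shared C4a/C4b probe set was dim everywhere and was not tested. Its signal was 0.287 to 14.6 on the line arrays, against 11.3 in control 1 and 1.85 in control 2. The groups overlapped, and its control signals ran in the opposite order to those of the brighter probe set. Over 24 arrays the signals of both C4a/C4b probe sets on the log2 scale correlated at r = 0.06, so the comparison above rests on 1 probe set.

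Cfb, the factor B of the alternative route and encoded on mouse chromosome 17 as C4b and C2 are, had dim signals on all but 1 array. Its first probe set averaged 8.60 ± 4.96 in the lines (SD, n = 11), against 64.2 in control 1 and 68.0 in control 2. Line arrays ran from 1.24 through a median of 7.66 to 25.3, all below both controls and dim on every array, with the highest line mean of 17.9 in gammaB8 and the lowest of 1.25 in betaD5. Of the tested probe sets, which do not include this one, 29.7% had every line mean below both controls. This was the only one of the single-gene probe sets on which the control arrays were nearly alike, control 2 being 1.06 times control 1. Since it lay under the array's median on all 24 arrays, it did not enter the main comparison. Fitted without the filter, its log2 difference was -1.29 (SE 0.13, adjusted p = 2.56e-06), and in that fit 16.9% of 12422 probe sets were called lower.

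The second Cfb probe set gave another picture. It averaged 22.6 ± 5.72 in the lines (SD, n = 11), against 9.05 in control 1 and 146.5 in control 2. The line arrays, at 3.45 to 33.7, lay mostly above control 1 and all below control 2. Fitted without the filter, its difference from the control was -0.67 (adjusted p = 0.11). The Cfb probe sets therefore disagreed in control 1 and correlated at only 0.34 over 24 arrays, and the lower Cfb signal in the lines rests on the first of them. Control 2 was the only array on which a Cfb probe set lay above the median, by 1.36 times.

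Serping1, the inhibitor of the C1 proteases on mouse chromosome 2, had every line mean below both controls, with 4 line arrays at 128.5 to 264.5 above the rest. Its signal averaged 64.6 ± 35.4 in the lines (SD, n = 11), against 179.5 in control 1 and 792 in control 2. Over single line arrays it ran from 7.53 through a median of 44.9 to 264.5. All 11 line means and 21 of 22 line arrays lay below both controls, the exception being the unnumbered cRAF_cMYC array at 264.5. For comparison, 29.7% of tested probe sets had every line mean below both controls. The log2 difference was -2.23 (SE 0.39, adjusted p = 0.000147). It was -1.25 without control 2 (adjusted p = 0.0181) and -3.21 without control 1, and -2.34 without both cRAF_cMYC and gammaA7.

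By line, Serping1 was highest in cRAF_cMYC, with signals of 50.7, 145 and 264.5 on its 3 arrays. The gammaA7 arrays gave 46.3, 140.3 and 27.5, and the A2B1 arrays 128.5 and 42.7. The arrays of each of these lines were far apart, and the numbered arrays of cRAF_cMYC and gammaA7 that matched each other across the array also had alike Serping1 signals, 50.7 and 46.3 for replicates 1 and 145 and 140.3 for replicates 2. The single arrays of betaD10, gammaD12, gammaD1, betaD5 and gammaA3 gave 82.9, 67.1, 57.9, 43.5 and 35.5. B3 was more even, at 36.8, 39.8 and 29.5, as was gammaB8 at 64.7, 50.2 and 39.6. A2C12 was lowest, at 40.4, 7.53 and 32.4. Between neighbours in the order of mean log2 levels, only the step between cRAF_cMYC and the control (1.36) exceeded the spread of arrays within a group. That spread, an SD of 0.71 on the log2 scale, pools the lines with the control pair. The differences among lines did not pass the F-test (adjusted p = 0.582), which draws on the same spread.

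Set against the control line by line, Serping1 was called lower in 9 of 11 lines. A2C12 had the largest difference (-2.88, 95% interval -4.12 to -1.63, adjusted p = 0.000418). The lines that missed the threshold were cRAF_cMYC (-1.36, 95% interval -2.60 to -0.11, adjusted p = 0.0521) and betaD10 (-1.86, 95% interval -3.53 to -0.20, adjusted p = 0.0606). Over all 11 such comparisons, which share the control arrays, 20.8% of probe-set results were called lower. All 11 intervals lay below 0. These calls leaned on control 2: of the 22 line results of Serping1 and Cd55 together, 19 were called lower, against 6 without control 2, 21 without control 1 and 10 with an offset of 1.

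Cd55, the surface regulator that takes apart the C3-splitting enzymes, was below the array's median in most lines, with a median percentile of 30.0 over the line arrays, and at control level on 1 array. Its own probe set had a median line mean of 11.1 and a mean of 39.3 ± 72.6 (SD, n = 11), against 114.4 in control 1 and 425.6 in control 2. Single line arrays ran from 0.650 through a median of 17.4 to 437. Of the 22 line arrays, 21 lay below both controls, as did 10 of 11 line means. All 11 line means did so for 29.7% of tested probe sets. The exception was A2B1, where replicate 1 gave 437, above both controls, and the unnumbered array 66.5.

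The rest of the lines formed an order with B3 next. B3 gave 63.9, 54.2 and 74.3 on its 3 arrays, which is 0.99 to 1.40 times the median signal of the same array. cRAF_cMYC followed at 25.4, 25.5 and 55.1. The other 8 lines had means of 4.42 to 12.4 with the lowest in gammaD1. Their steps were at most 0.15 on the log2 scale, below the spread of arrays within a group (SD 0.66). That SD pools the lines with the control pair, so it is not the spread of the lines alone. Between neighbouring lines only the step from A2B1 to B3, at 1.17, exceeded it. The step from cRAF_cMYC to gammaB8, at 0.61, lay just under it, and a spread from the lines alone was not computed.

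The log2 difference of the Cd55 probe set between lines and control was -2.25 (SE 0.54, adjusted p = 0.00183). Leaving out the line A2B1 gave -2.45 (adjusted p = 3.98e-05). Without control 2 the difference was -1.43 and the call was lost (adjusted p = 0.098), and without control 1 it was -3.08 (adjusted p = 0.0016). By line, 10 of 11 were called lower, by -2.83 in gammaD1 to -1.43 in B3, where the 95% interval was -2.59 to -0.28. A2B1 differed by -0.27 (95% interval -1.54 to 1.00, adjusted p = 0.734), an interval that spans lower and higher levels.

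Whether Cd55 differed among the lines depended on which arrays were used. Over all arrays the F-test, whose spread includes the control pair, gave an adjusted p of 0.119, with 3.42% of tested probe sets under 0.05. Without the unnumbered A2B1 array the adjusted p was 0.0131, and without A2B1 replicate 1 it was 0.257. With only the 6 lines that had repeat arrays it was 0.0313, and with only the numbered arrays of 5 lines, which do not include A2B1, it was 0.0123. In the fits where Cd55 passed, 788 to 1584 probe sets of the whole array passed, against 262 over all arrays.

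**Figure D2:**
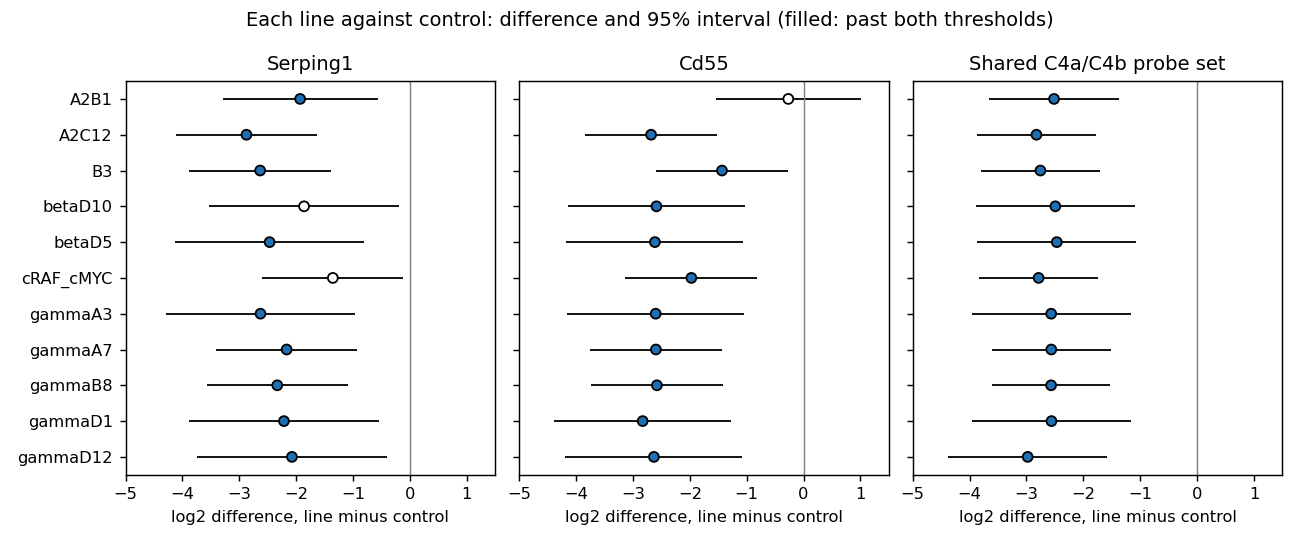
Log2 difference of each tumour line from the control (line minus control, on the log2(signal + 32) scale) for Serping1, Cd55 and the shared C4a/C4b probe set, with 95% intervals; filled points passed both thresholds (adjusted p 0.05, 2-fold). Serping1 passed in 9 lines and Cd55 in 10, 19 in all against 6 without control 2, and A2B1 stood near 0 for Cd55. The shared probe set is drawn as a description, since the filter fixed its direction. Its filled points and intervals are not test results.

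The probe set shared by Cd55 and Cd55b had nearly the same values as the Cd55 probe set. Cd55b is the testis-enriched mouse copy of Cd55, next to it on chromosome 1. The shared signal averaged 42.1 ± 77.5 in the lines (SD, n = 11), against 114.6 in control 1 and 453 in control 2, and it was 447 on A2B1 replicate 1 and 88.1 on the unnumbered A2B1 array. Its log2 difference was -2.27 (SE 0.59, adjusted p = 0.00317), and without control 2 it was -1.41 (adjusted p = 0.135). Again 10 of 11 lines were called lower, and A2B1 was the one that was not (-0.15, 95% interval -1.42 to 1.11). Over 24 arrays both probe sets correlated at r = 0.97 and rho = 0.83 on the log2 scale, and over the 21 line arrays without A2B1 replicate 1 at r = 0.89. The points share arrays and may share transcripts, so they are not independent measurements.

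**Figure D3:**
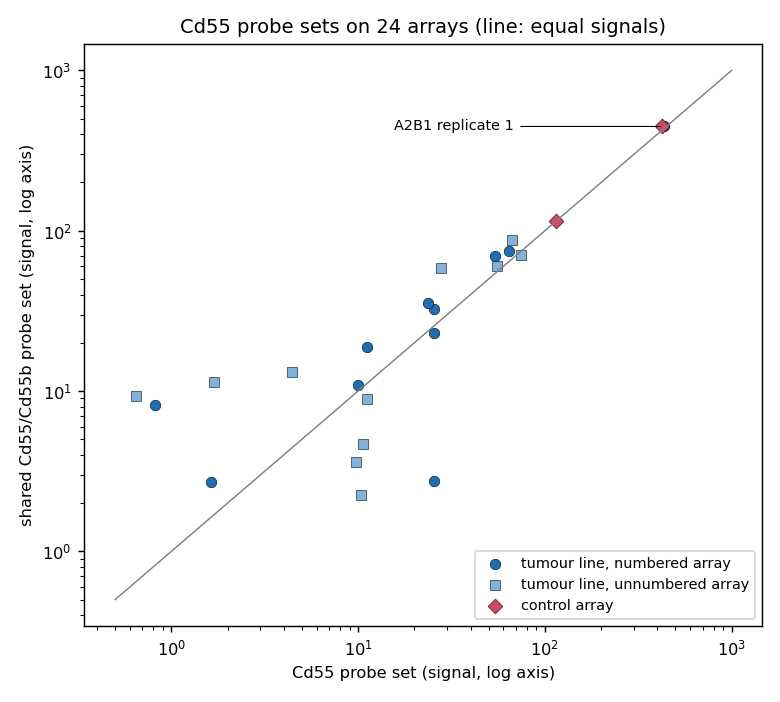
Signal of the probe set shared by Cd55 and Cd55b against that of the Cd55 probe set on 24 arrays (both log axes, arbitrary units; the line marks equal signals). A2B1 replicate 1, at 437 and 447, lies on control 2, at 425.6 and 453, apart from the other 21 line arrays, none of which exceeded 74.3 and 88.1.

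The promoters of Cd55 and Cd55b are shown because the array reads both genes in 1 probe set, and because Cd55 had the widest spread of line means among the listed genes. Each is 300 bases of RefSeq sequence, build GRCm38.p6, minus strand, from 250 bases before the annotated start to 50 after it. Cd55 lies at chr1:130462695-130462994 and Cd55b at chr1:130422994-130423293. Capitals mark matches to a loose NF-kB motif (GGG and CC separated by any 5 bases, on either strand, overlapping matches joined) and to TATAAA.
Cd55: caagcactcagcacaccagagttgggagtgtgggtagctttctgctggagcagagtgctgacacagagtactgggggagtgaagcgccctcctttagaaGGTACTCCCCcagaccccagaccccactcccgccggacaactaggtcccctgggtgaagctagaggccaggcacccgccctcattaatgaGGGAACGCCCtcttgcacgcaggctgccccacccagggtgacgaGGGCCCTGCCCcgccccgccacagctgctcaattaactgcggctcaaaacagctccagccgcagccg
Cd55b: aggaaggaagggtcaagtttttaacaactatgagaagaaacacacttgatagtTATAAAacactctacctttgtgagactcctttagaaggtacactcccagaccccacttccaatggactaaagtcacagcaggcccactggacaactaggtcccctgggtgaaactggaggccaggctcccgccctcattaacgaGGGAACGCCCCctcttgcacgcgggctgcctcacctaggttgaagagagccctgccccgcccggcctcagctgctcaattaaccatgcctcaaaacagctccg

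Both windows held the match GGGAACGCCC, first base at position -61 from the start in Cd55 and -53 in Cd55b. Cd55 had further matches at -151 and, overlapping each other, at -17 and -16, and Cd55b had one at -52 that overlaps the shared match and lengthens its capitals. Cd55b also had a TATAAA at -197 that the Cd55 window lacked. The loose NF-kB motif was in 50.8% of all 32851 promoters of the same length and TATAAA in 13.6%, so neither is rare. The windows held no TTCNNNGAA, a motif of STAT factors found in 8.30% of promoters, no core of the interferon-stimulated response element (3.40%) and no TTGCNNAA, a C/EBP motif (10.8%).

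The control arrays were far apart for the same genes. Control 2 was 4.41 times control 1 for Serping1, 3.72 times for Cd55, 3.95 times for the shared Cd55/Cd55b probe set and 7.18 times for the shared C4a/C4b probe set. On the log2(signal + 32) scale all 4 tested probe sets were more than 2-fold higher in control 2, as were 6.05% of all tested probe sets. Among the untested ones, Cfb was 1.06 times and 16.2 times as high in control 2, and the dim C4a/C4b probe set was 0.16 times.

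Markers of several lung cells moved with that difference. All 5 measured type II markers were higher in control 2, with a summed signal of 27394 against 1381 in control 1, while the lines held 33.0 to 117. All 6 B and T cell markers were higher too (2312 against 298, lines 62.7 to 172.6), as were all 5 endothelial markers (1969 against 714, lines 27.4 to 111.2) and both club cell markers (17143 against 6208, lines 13.3 to 77.8). Of the 11 macrophage and myeloid markers only 1 was higher in control 2. Adipocyte markers were mixed, 3 of 5 higher in control 2 (696 against 544), and fibroblast markers were mostly lower, 2 of 7 higher (2434 against 4720). No defining marker was listed at 0. The part of these cells in the complement signals of the controls was not tested.

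**Figure D4:**
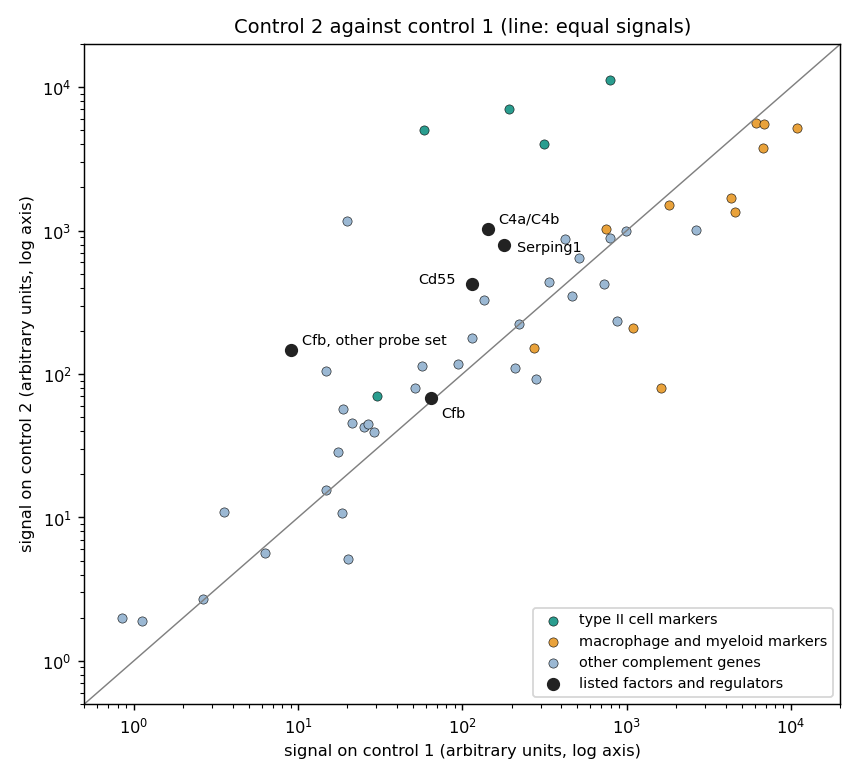
Signal on control 2 against control 1 (both log axes, arbitrary units; the line marks equal signals) for the complement factors and regulators, other complement genes, type II cell markers and macrophage and myeloid markers. Serping1, Cd55 and the C4a/C4b probe set lie above the line with the 5 type II markers, the first Cfb probe set lies close to it and the other above it, and 10 of 11 macrophage markers lie below it.

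The A2B1 arrays also stood apart from each other. Replicate 1 exceeded the unnumbered array 6.58 times for Cd55, 5.08 times for the shared Cd55/Cd55b probe set, 3.01 times for Serping1 and 2.78 times for the shared C4a/C4b probe set. On the log2(signal + 32) scale the first 3 of these were over 2-fold, as were 7.16% of all tested probe sets. Cfb did not share this, at 14.0 on replicate 1 and 15.2 on the unnumbered array by its first probe set, and 5.53 and 29.5 by the other. Of the other complement genes, clusterin (Clu), a secreted regulator of the terminal complex, was 2944 on replicate 1 and 423 on the unnumbered array, and the protease gene C1ra 1270 and 486. Clu and C1ra were named here after their values had been seen. Type II markers summed to 117 on replicate 1 and 49.1 on the unnumbered array, both under the 1381 of control 1. Macrophage and myeloid markers summed to 1645 and 886, of which Cd14 gave 1264 and 704.6. Mesothelial markers summed to 7930 and 5300. Markers of nearly every cell type were higher on replicate 1: all 5 type II, 10 of 11 macrophage, all 4 mesothelial, 6 of 7 fibroblast, 5 of 6 B and T cell, 4 of 5 endothelial, both club cell and 3 of 5 adipocyte markers. Replicate 1 also had the highest median signal of the line arrays, 75.5. The part of either in the Cd55 signal was not tested.

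Other genes of the complement system were mostly low in the lines as well. Of 49 further genes listed, 33 were measured and 16 tested, of which 12 were lower and 0 higher, with a median log2 difference of -2.16, against -0.05 over all tested probe sets (1638 lower and 1265 higher of 7670). A gene bright in the controls alone passes the filter and must then be lower, which held for 8 of the 12. Of the 8 tested genes above the median on at least 1 line array, 4 were lower (C1qc, C3ar1, C5ar1 and Itgb2). For the other 8, values are given without p-values. The other 4 were C1ra, Clu, Cr1l and C1qbp, of which C1qbp had the highest difference, 0.09. Many of these genes are textbook products of macrophages. The 11 macrophage and myeloid markers had a summed signal of 573 to 2063 in the lines, mostly from Cd14, 44963 in control 1 and 26150 in control 2. Several of them, such as Lyz2 at no more than 30.4 on any line array, passed the filter through the controls alone. These marker values are therefore a description, and the part of macrophages was not tested.

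In the classical and lectin route 4 of 5 tested genes were lower, beside 21.4% of all tested probe sets. Of the 4, 3 were tested through the controls alone. Of the 2 genes above the median on at least 1 line array, 1 was lower. The largest differences were those of C1qa (-3.62) and C1qc (-3.11, adjusted p = 4.64e-08), chains of the recognition molecule C1q that macrophages make. C1qa averaged 21.6 ± 10.3 in the lines (SD, n = 11), against 419 in control 1 and 875 in control 2. C1ra, the protease that Serping1 blocks, was the gene not called lower (-0.49, adjusted p = 0.345). Its line signal of 311 ± 207 stood beside 335 in control 1 and 437 in control 2, with 9 of 11 line means below both controls and 2 above both. In the alternative route only properdin (Cfp), which stabilises the C3-splitting enzyme, passed the filter, through the controls alone, with a difference of -2.35. Its signal was at most 35.7 on any line array, against 222 in control 1 and 225 in control 2.

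Of the other regulators, 1 of 3 tested was lower, through the controls alone. This was Cd59a, which blocks the pore at the cell surface, with a log2 difference of -1.67 and 12.1 ± 8.61 in the lines (SD, n = 11), against 94.5 in control 1 and 117 in control 2. Cr1l, known in mice as Crry and acting on the C3-splitting enzymes at the cell surface as Cd55 does, averaged 357 ± 44.3 in the lines (SD, n = 11), against 467 in control 1 and 349.7 in control 2 (-0.18, adjusted p = 0.328). Clu was not called either (-0.78, adjusted p = 0.158). For Cr1l, 5 of 11 line means lay below both controls and none above both.

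Of the receptors for complement fragments, 6 of 7 tested were lower, beside 21.4% of all tested probe sets. Of the 6, 3 were tested through the controls alone. Of the 4 receptors above the median on at least 1 line array, 3 were lower. The integrin chains Itgb2 (-4.66, adjusted p = 3.34e-09) and Itgax (-3.99), parts of complement receptors on leukocytes, had the largest differences. Over all these complement lists, 8 of the 12 genes called lower were tested through the controls alone. No gene of the terminal pathway was tested. Its component Hc, which encodes C5, had a median signal of 4.85 in the lines, against 19.8 in control 1 and 1173 in control 2, the same order of controls as C4a/C4b, Serping1 and Cd55.

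**Figure D5:**
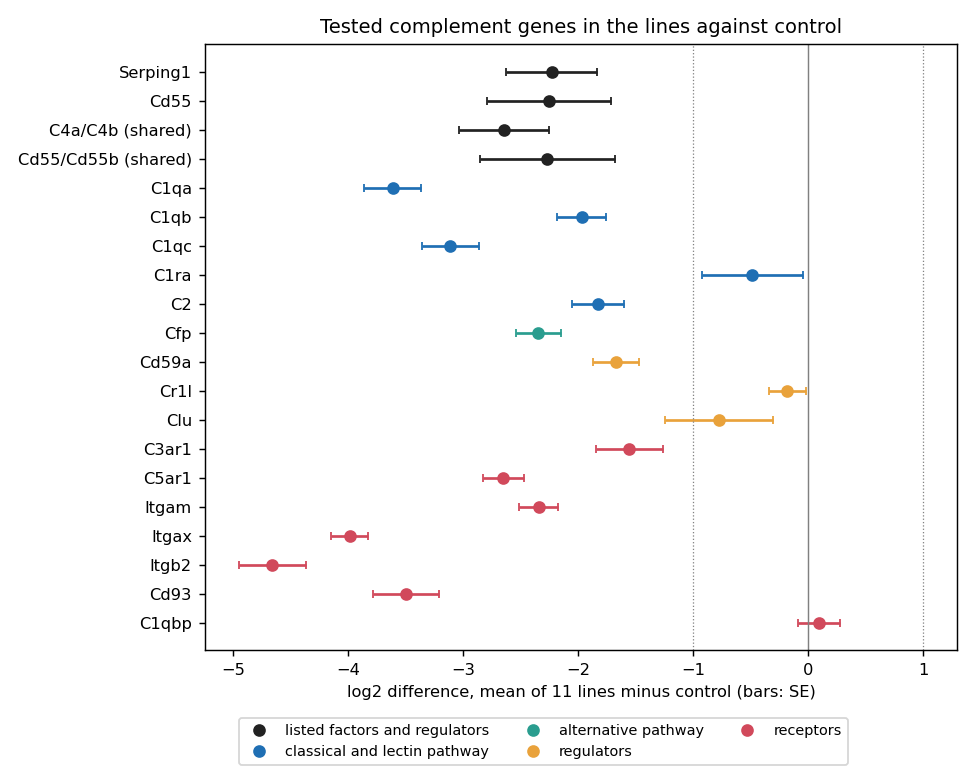
Log2 difference of the mean of 11 tumour lines from the control (points; bars are SE) for the tested complement probe sets, coloured by role; dotted lines mark a 2-fold difference. The factors and regulators at the top lie between -2.64 and -2.23, and C1ra, Cr1l, Clu and C1qbp are the 4 further genes that were not called. C4a/C4b and 8 further genes were bright in the controls alone, so the filter fixed their direction.

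Genes of interferon-gamma, interleukin and NF-kB signalling, which switches complement genes on, were lower in 8 of 18 tested and higher in 0. Their median was -0.68, and 21.4% of all tested probe sets were lower. The 8 included Nfkbia (-1.24, adjusted p = 0.00202), which encodes an inhibitor of NF-kB and not an activator. The Nfkbia difference leaned on control 1, being -0.48 without it, and was -0.71 with each array centred on its median. Nfkb2 had all 11 line means above both controls (0.76, adjusted p = 0.00941), a difference under 2-fold. The largest differences were in Cebpa (-4.85, adjusted p = 2.57e-10), a transcription factor of myeloid and alveolar cells, and the cytokine gene Il1a (-3.57), which was tested through the controls alone. This count depended on scaling: 6 were lower and 1 higher after quantile normalization (17.9% lower over all probe sets), and 2 lower and 1 higher when each array was centred on its median (12%), a share near that of the whole array. Of the acute-phase genes, which inflammation induces along with complement, 4 of 7 tested were lower and 1 was higher, beside 21.4% and 16.5% of all tested probe sets. Lcn2 (-4.16, adjusted p = 4.13e-09) and haptoglobin (Hp, -2.76, adjusted p = 0.00263) had the largest lower values. Hp and Cp, both among the 4, lost their calls without control 2, at -1.02 and -1.15. Saa3, not called with both controls (-0.38), was at -3.19 without control 2 and 2.44 without control 1. Ptx3, a secreted protein that binds C1q, was the one that was higher, at 491 ± 177 in the lines (SD, n = 11), against 82.6 in control 1 and 29.7 in control 2 (2.44, adjusted p = 0.000143).

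Across the 11 line means, the genes whose log2 levels followed Serping1 most closely among 5823 were Hoxc8 (r = 0.86), Gata2 (r = 0.84) and Shh (r = 0.83), with rank correlations of 0.79, 0.85 and 0.86. Hoxc8 signals were 14.2 to 55.1 and Shh signals 7.89 to 61.6 over the lines, so part of this likeness is between dim values. Without A2B1 replicate 1 the correlations of Hoxc8, Gata2 and Shh were 0.855, 0.837 and 0.766. For Cd55 they were Gsta4 and Pex7 (both r = 0.92) and Bex4 (r = 0.90), and these rested on A2B1, without which the correlations were 0.74, 0.68 and 0.57. The line means rest on unequal numbers of arrays and on the doubtful labels above, and these genes were the best of many, so the values are descriptions.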

How the data were processed

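The authors deposited 1 linear intensity signal for each of 12488 probe sets of an Affymetrix mouse array, made with GCOS, per the submitters' processing notes (version not given). The background correction used is not stated in these sources. Nearly equal trimmed means (2% removed at each end) make each level relative to the sample's other RNA. Dropping 66 Affymetrix controls left 12422 probe sets: 10833 carried 1 gene symbol, 396 several and 1193 none.

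Signals were transformed as log2(signal + 32), which understates changes of low signals. In limma 3.58.1 (R 4.3.3), repeat arrays were averaged by line and 11 line means fitted against 2 control arrays, and 12 group means were fitted over 24 arrays for each line's contrast with control and an F-test over lines. All adjusted p-values are limma's, Benjamini-Hochberg over every tested probe set. The fit takes the spread mostly from the lines, so it is too narrow where the controls differ more than the lines do. The 12-group fit takes its spread from the repeat arrays of lines and from the control pair. Where the controls differ more than repeat arrays do, the F-test over lines is less able to find differences. Lines with 1 array are assumed to vary like the others. All of these have an unnumbered array, so line and array label cannot be told apart for them. The p-values thus cover only spread between these samples, which may be technical, and precision is limited by the number of arrays. Both fits were tested on simulated data.

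The genes and lists were chosen with earlier results of these data known. A gene of a list stands for its brightest tested probe set. Named were all listed factors and regulators, up to 2 called genes of largest change per list (the largest where none was called), any called gene that was the only one of its list, and the 3 genes most alike to each tested single-gene probe set. Genes named beyond this were chosen after their values were seen: C1ra, Clu, Cr1l, C1qbp, Hc, Ptx3, Cp, Saa3, Nfkbia, Nfkb2 and the markers Lyz2 and Cd14. RefSeq promoters were matched for Cd55 and Cd55b only, and Serping1, Cfb and C4b are named without one. Alternatives were other normalizations, offsets and filters, a random line block, other fold thresholds, and leaving out each line, array or control. Leaving out both cRAF_cMYC and gammaA7, and every alternative for the further complement genes, was chosen after seeing the data.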

Additional observations from a re-analysis of the deposited data

How the results depend on the processing

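The lower Serping1 signal kept its direction and stayed past the threshold in all 41 alternatives run, with log2 differences of -3.21 to -1.25. The C4a/C4b probe set, whose direction the filter fixed, ran from -3.94 to -1.35 and left the test under the stricter filter. Cd55 and the shared Cd55/Cd55b probe set lost the call in 1 of 41 alternatives each, without control 2, and ran from -3.83 to -1.40 and from -3.88 to -1.41. The count of single-gene probe sets called lower was 2, and leaving out 1 array, line or control gave 1 to 2, the 1 being without control 2. The count called among lines was 0 and became 1, Cd55, without the unnumbered A2B1 array (range 0 to 1 over arrays left out), with only the 6 lines that had repeat arrays, with the numbered arrays of 5 lines, and with those arrays and the replicate block. All tested probe sets past the F-test then numbered 788, 794, 1584 and 1525, against 262, so these smaller fits passed more of the whole array, and the cause was not tested. Of the 22 line results for Serping1 and Cd55, 19 were called lower, 10 with an offset of 1, 21 with an offset of 100, 6 without control 2 and 21 without control 1. The numbers did not pair the samples: of 10 pairs of lines, 1 deviated together by a correlation over 0.1 (range -0.03 to 0.82), the pair cRAF_cMYC and gammaA7. Scaling moved the median log2 difference of all tested probe sets, -0.05 as deposited, to 0.18 after quantile normalization and 0.49 when arrays were centred on their medians, and the calls to 1672 higher and 1371 lower and to 2421 higher and 923 lower. Relative to that median Serping1 was at -2.18 as deposited and -2.29 after quantile normalization, and Cd55 at -2.21 and -2.19. Centring leaves this distance fixed by construction. Under both scalings 12 of the 16 further complement genes were called lower, beside 17.9% of all tested probe sets after quantile normalization and 12% after centring. The filter fixed the direction of 8 of the 16, so this count is in part set in advance. Of the other 8 genes, 4 were lower as deposited.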
